A study of Mus musculus with 6 samples.

Results

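Lipid droplets, the fat stores of an adipocyte, are covered by coat proteins and are made and enlarged by a small set of membrane proteins. The genes of 9 of these proteins were followed here: the 5 perilipins *Plin1* to *Plin5*, the CIDE genes *Cidea* and *Cidec*, *Bscl2* (seipin) and *Fitm2* (FIT2). They were taken by gene symbol from the count table of each RNA-Seq library, as 9 of the 24421 symbols in the tables. All 9 had a row in the table of each of the 6 libraries, and 8 had enough counts to be tested.

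The libraries came from 3T3-L1 cells, a mouse fibroblast line that becomes adipocyte-like in culture, and the design asked how mature adipocytes respond to added LMO3, a LIM-domain transcriptional cofactor. At day 7 the differentiating cells received an adenovirus, at 100 pfu/cell, that carried LacZ (AdLacZ, the control) or a codon-optimized mouse *Lmo3* (AdLmo3). By the paper's Methods, experiments were done 72 h later, and 3 libraries per virus were sequenced. The paper's Results give a shorter time for the check of *Lmo3* expression, and no time is given for the RNA-Seq samples alone. Both groups had been differentiated from 2 days after confluence in 10% serum with insulin (870 nM), a thiazolidinedione (TZD, 5 µM), Dex (1 µM) and IBMX (500 µM), with Dex and IBMX left out from day 3. All 6 libraries are therefore from 1 cell line that had been given a PPARγ ligand. An untreated, uninfected group was not analysed here.

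The libraries held 28035639 to 38332335 counts on genes, so that 3 counts, taken as the smallest detectable level, were worth 0.0768 to 0.111 CPM. CPM (counts per 1e6 counts on genes) was scaled between libraries by the TMM method, and such floors cover counting error only. *Lmo3* itself had a count of 0 in every library, so the labels could not be checked through it. The methods describe the viral sequence as codon-optimized, and whether its reads could be counted on *Lmo3* was not tested. The adipocyte markers *Adipoq* (1805 and 3749 CPM in AdLacZ and AdLmo3) and *Fabp4* (3467 and 5312 CPM) were abundant in both groups. The preadipocyte markers *Dlk1* (1159 and 1163 CPM) and *Pdgfra* (189 and 182 CPM) were also present. The brown fat marker *Ucp1* had 0 to 2 counts and the macrophage marker *Adgre1* had 0 to 2 counts. Replicates of a group differed by more than sampling noise in each pair.

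A droplet begins as a lens of triglyceride between the leaflets of the endoplasmic reticulum membrane, where FIT2 and seipin take part in its budding and growth. Perilipins then bind its surface and control how lipases reach the stored fat, with perilipin 1 the main coat of adipocytes and a target of protein kinase A. CIDE proteins gather where droplets touch and pass lipid from the smaller to the larger one, and in white adipocytes CIDEC is the member linked to the single large droplet.

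*Cidec*, *Plin1* and *Fitm2* were higher in AdLmo3 than in AdLacZ libraries, by 1.61-, 1.47- and 1.23-fold. These 3 of the 8 tested genes passed an adjusted p of 0.05 (edgeR's quasi-likelihood test, Benjamini-Hochberg adjustment over 12766 genes) and no member was called lower. Among all tested genes, 4.28% were called, 2.71% as higher and 1.57% as lower. DESeq2 called 5 of the members (and 8.32% of all genes it tested), and a fit blocked on replicate number called 2 (and 3.9% of all tested genes). The count of called members was 1 without AdLacZ replicate 1, 2 or 3 or AdLmo3 replicate 2, and without AdLacZ replicate 3 the number of called genes fell from 547 to 77. The median log2 fold change was 0.33 over the 8 members and 0.00 over all tested genes. In 6 of the 8 every AdLmo3 library lay above every AdLacZ library, a pattern shown by 13.3% of all tested genes. In these bulk libraries, more cells of a type and more RNA per cell cannot be told apart, nor can fewer cells and less RNA per cell.

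Many adipocyte markers were higher in the same libraries. Of 12 listed adipocyte markers, 8 were called higher (2.71% among all tested genes), and *Lep*, *Slc2a4*, *Lpl* and *Cd36* were not called. The median log2 fold change of the 12 was 0.60. Their summed level was 19830 to 22990 CPM in AdLacZ and 26910 to 33300 CPM in AdLmo3 libraries. None of the 11 tested preadipocyte markers was called by edgeR (0 at an unadjusted p under 0.05, and 0 called by DESeq2), with summed levels of 15530 to 20010 and 15380 to 23010 CPM. Most of this sum came from the collagen genes *Col3a1* (means of 11383 and 12335 CPM) and *Col1a1* (5105 and 5692 CPM). The part of the adipocyte and preadipocyte markers in the changes of the droplet genes was not tested. Without AdLacZ replicate 3, 2 of the 12 adipocyte markers were called.

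**Figure D1:**
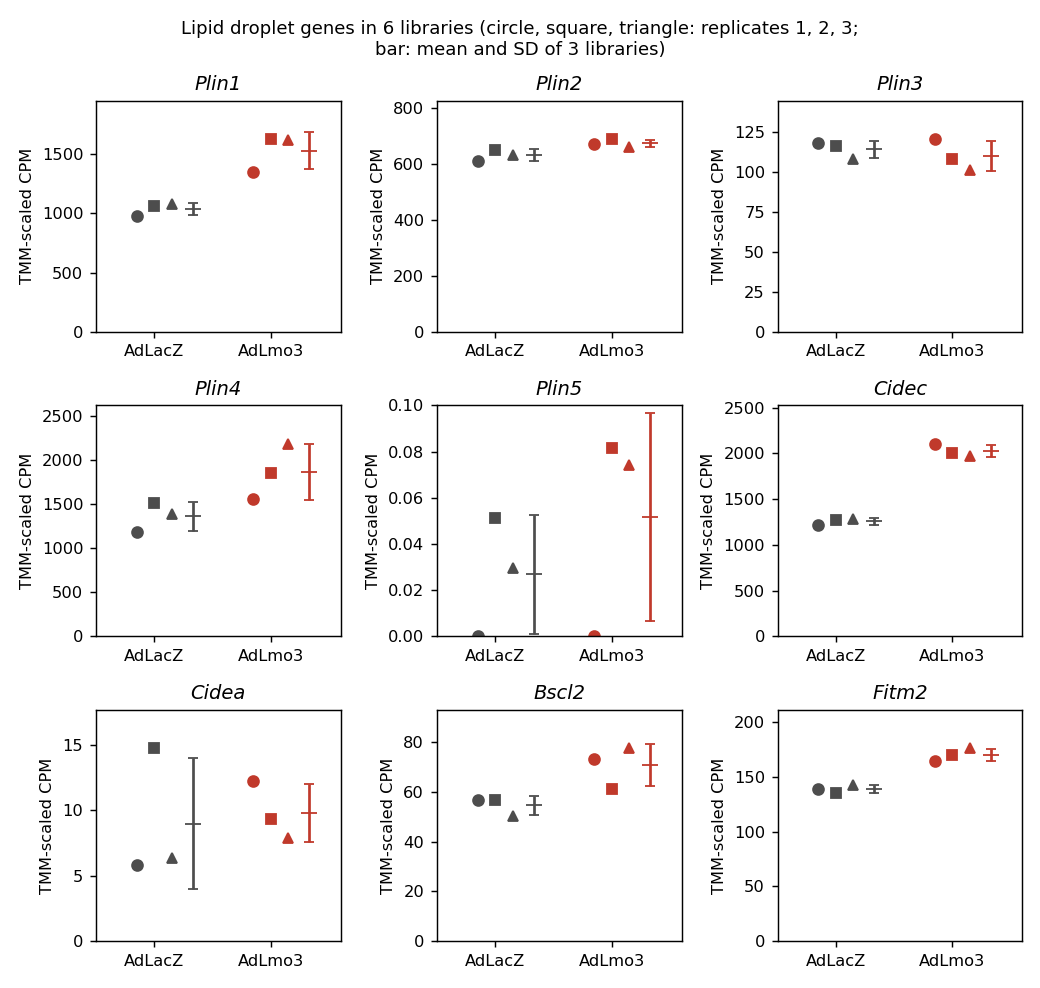
TMM-scaled CPM (vertical axes, each starting at 0) of the 9 lipid droplet genes in 3 AdLacZ (grey) and 3 AdLmo3 (red) libraries, with replicates 1, 2 and 3 as circle, square and triangle and bars for the mean and SD (n = 3). *Cidec*, *Plin1*, *Fitm2*, *Plin2*, *Plin4* and *Bscl2* lie in separate ranges in the 2 groups, *Plin3* and *Cidea* overlap, and *Plin5* does not exceed 0.0815 CPM in any library.

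Among the coat proteins, *Plin1* encodes perilipin 1, which shields the droplet from lipases until it is phosphorylated. The gene lies on chr7:79720218-79732903 of GRCm38 (minus strand). It had 979, 1059 and 1075 CPM in AdLacZ replicates 1, 2 and 3, and 1349, 1623 and 1614 CPM in AdLmo3 replicates 1, 2 and 3. The lowest AdLmo3 library was above the highest AdLacZ library, and AdLmo3 replicate 1 was the lowest of its group. The group means were 1037 ± 51.4 and 1529 ± 156 CPM (SD, n = 3 each), and the log2 fold change was 0.56 (SE 0.0943, 95% interval 0.34 to 0.78, adjusted p = 0.0184 with edgeR). The call was lost without AdLacZ replicate 1, 2 or 3 (adjusted p = 0.0590, 0.0568 and 0.0840) and without AdLmo3 replicate 2 (adjusted p = 0.0875), while the log2 fold change stayed between 0.51 and 0.65.

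*Plin2* encodes the perilipin of small droplets that is found in nearly all cell types (chr4:86648386-86670060, minus strand). Its level was 609, 651 and 634 CPM in AdLacZ and 672, 688 and 660.4 CPM in AdLmo3 replicates 1 to 3. The groups did not overlap, but the gap between them was narrow. The log2 fold change was 0.09 (95% interval -0.06 to 0.24, adjusted p = 0.484, edgeR), so that a rise above 0.24 lay outside the interval.

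*Plin3*, a widely expressed perilipin that moves from the cytosol to new droplets, had 118, 116 and 108 CPM in AdLacZ and 121, 108 and 101 CPM in AdLmo3 libraries. The groups overlapped, and AdLmo3 libraries held both the highest and the lowest value. The log2 fold change was -0.05 (95% interval -0.24 to 0.13, adjusted p = 0.764, edgeR), and it was 0.00 without AdLmo3 replicate 3.

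*Plin4* encodes a perilipin whose long repeated stretch forms an amphipathic helix on growing droplets of white adipocytes. Its level was 1185, 1516 and 1387 CPM in AdLacZ and 1556, 1856 and 2186 CPM in AdLmo3 libraries. All 3 AdLmo3 libraries were above all 3 AdLacZ libraries, but the highest AdLacZ library came close to the lowest AdLmo3 library, and the spread within groups was the widest of the 4 members with the highest CPM (coefficient of variation 12.3% and 16.9%). The log2 fold change of 0.45 (95% interval 0.13 to 0.78) had an adjusted p of 0.117 with edgeR and of 0.0100 with DESeq2.

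The *Plin4* transcript is unusual in its sequence, which bears on its counting. In the longest annotated transcript (5756 bases), 12.2% of all stretches of read length (75 bases) occur more than 1 time. No such stretch repeats within the longest transcript of any other member, and their other transcripts were not scanned. Each base matched the base 99 positions further on in 49.7% of cases, against a median of 25.3% over shifts of 1 to 300 bases. The highest match, 49.9%, was at a shift of 297 bases. Of the transcript, 44.4% lies in adjacent windows of 297 bases that are at least 80% identical to each other. A step of 99 bases is 33 codons. To show the repeat, 3 consecutive units are given 5′ to 3′ on the coding (minus) strand, from chr17:56106304-56106402, chr17:56106205-56106303 and chr17:56106106-56106204 of GRCm38. Capitals mark the 87 of 99 positions that are the same in all 3 units.
*Plin4* unit 1: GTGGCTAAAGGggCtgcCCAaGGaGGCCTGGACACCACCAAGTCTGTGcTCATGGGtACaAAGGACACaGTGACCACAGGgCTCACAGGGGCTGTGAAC
*Plin4* unit 2: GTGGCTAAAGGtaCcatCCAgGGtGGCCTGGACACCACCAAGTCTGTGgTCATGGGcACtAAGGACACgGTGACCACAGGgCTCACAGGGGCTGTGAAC
*Plin4* unit 3: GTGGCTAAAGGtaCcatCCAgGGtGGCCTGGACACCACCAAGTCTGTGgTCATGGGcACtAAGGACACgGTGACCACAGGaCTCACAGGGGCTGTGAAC
Units 2 and 3 are nearly alike, so that a read inside them can have more than 1 place in the same gene. How the authors treated reads with several places in the genome is not given in the sources used here, and the level of *Plin4* carries that uncertainty in both groups.

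*Plin5* encodes the perilipin of oxidative tissues such as heart and brown fat. It had 0, 2 and 1 counts in AdLacZ and 0, 3 and 2 counts in AdLmo3 libraries. No library exceeded the floor of 3 counts, and a difference was not detectable at this depth. The gene lies 1797 bases from *Plin4* on the same strand, and *Plin3*, *Plin4* and *Plin5* together span 192 kb of chr17. The neighbours *Plin4* and *Plin5* were thus among the highest and the lowest of the 9 genes in CPM.

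Levels of different genes can be compared only per length of transcript. Per kilobase of annotated exon, *Plin4* (236 ± 28.9 CPM per kb), *Plin1* (223 ± 11.1) and *Plin2* (179.8 ± 5.99) were the abundant perilipins of AdLacZ libraries, followed by *Plin3* (30.2 ± 1.38). In AdLmo3 libraries *Plin1* (329 ± 33.5) and *Plin4* (323 ± 54.6) were level within their spread, and *Plin2* (191.8 ± 3.98) and *Plin3* (29.1 ± 2.55) followed. The place of *Plin4* depended on the length used. With the longest transcript of each gene, the AdLacZ levels of *Plin1*, *Plin2* and *Plin4* were 368 ± 18.3, 334 ± 11.1 and 237 ± 29.0 CPM per kb, while *Plin1* was above *Plin2* with either length and in both groups.

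As a share of the summed perilipin level per kilobase, *Plin1* made up 33.9, 32.2 and 33.99% in AdLacZ and 37.1, 39.0 and 36.9% in AdLmo3 replicates 1 to 3. *Plin2* made up 27.97, 26.2 and 26.5% in AdLacZ and 24.4, 21.9 and 19.99% in AdLmo3 libraries. *Plin3* made up 5.02, 4.35 and 4.20% in AdLacZ and 4.07, 3.19 and 2.85% in AdLmo3 libraries. For these 3 genes the shares of the 2 groups did not overlap, with *Plin1* higher and *Plin2* and *Plin3* lower in AdLmo3 libraries. The shares of a library add up to the whole, so that a larger share of 1 gene lowers those of the others. The CPM of *Plin2* itself was higher in every AdLmo3 library, and that of *Plin3* overlapped between the groups (log2 fold change -0.05). In CPM, 26.5% of all tested genes had groups that did not overlap. *Plin4* held 35.2 ± 2.05% and 36.9 ± 3.03% (SD, n = 3 each) with overlapping groups.

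A ratio of counts within a library does not depend on the scaling between libraries. The log2 ratio of *Plin1* to *Plin2* was 0.68, 0.70 and 0.76 in AdLacZ and 1.01, 1.24 and 1.29 in AdLmo3 libraries, a difference of 0.46. That of *Plin1* to *Plin3* was 3.18 ± 0.130 in AdLacZ and 3.79 ± 0.272 in AdLmo3 libraries, a difference of 0.61. The groups were separate for both ratios, with an exact two-sided permutation p of 0.1 each, the smallest that 3 against 3 libraries allow, and 0.2 after adjustment over the 4 pairs compared. *Plin4* to *Plin5* was not computed because of the low counts of *Plin5*.

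**Figure D2:**
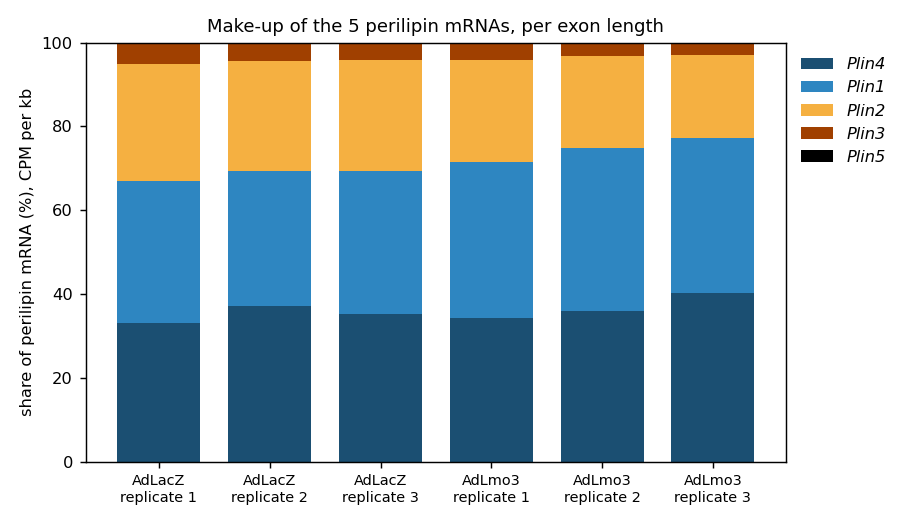
Share of each perilipin (%, vertical axis) in the summed CPM per kb of exon of the 5 perilipins, 1 bar per library. The share of *Plin1* is 37.7 ± 1.17% in AdLmo3 against 33.4 ± 0.994% in AdLacZ libraries, that of *Plin2* 22.1 ± 2.24% against 26.9 ± 0.927% (SD, n = 3 each), and *Plin5* is too low to be seen.

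Among the fusion proteins, *Cidec* (chr6:113424634-113435760, minus strand) showed the largest change of the 8 tested members. It had 1213, 1271 and 1281 CPM in AdLacZ and 2103, 1999 and 1974 CPM in AdLmo3 libraries. The groups were far apart for their spread, with coefficients of variation of 2.92% and 3.39%. The group means were 1255 ± 36.7 and 2025 ± 68.6 CPM (SD, n = 3 each), and the log2 fold change was 0.69 (SE 0.0723, 95% interval 0.52 to 0.86, adjusted p = 0.00352, edgeR). It passed the threshold in all 14 alternatives, those without 1 library included (adjusted p = 0.00808 to 0.0346). Per kilobase of exon, *Cidec* was also the most abundant member in both groups, with 676 ± 19.8 CPM per kb in AdLacZ and 1091 ± 37.0 in AdLmo3 libraries.

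*Cidea*, the CIDE protein of brown adipocytes, was far lower, with 5.79, 14.7 and 6.37 CPM in AdLacZ and 12.2, 9.29 and 7.85 CPM in AdLmo3 libraries. AdLacZ replicate 2 was the highest of the 6, and the groups overlapped. The log2 fold change was 0.13 (95% interval -0.67 to 0.93, adjusted p = 0.885, edgeR), so that neither a rise nor a fall of moderate size could be told from none. It was 0.69 without AdLacZ replicate 2 (adjusted p = 0.124) and between -0.11 and 0.26 without any other library. The 12 listed brown fat markers gave no call among the 5 tested (edgeR, 0 at an unadjusted p under 0.05, and 0 called by DESeq2), with summed levels of 97.5 to 128 CPM in AdLacZ and 103 to 133 CPM in AdLmo3 libraries.

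The log2 ratio of *Cidec* to *Cidea* counts was 7.71, 6.43 and 7.65 in AdLacZ and 7.43, 7.75 and 7.97 in AdLmo3 libraries. The groups overlapped, and the difference of 0.45 had an exact permutation p of 0.4 (0.5 adjusted). In all 6 libraries *Cidec* had far more counts than *Cidea*.

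Of the biogenesis proteins, *Fitm2* encodes FIT2, an endoplasmic reticulum protein needed for droplets to bud (chr2:163466379-163472629, minus strand). It had 139, 135 and 142 CPM in AdLacZ and 165, 169.8 and 176 CPM in AdLmo3 libraries. The groups did not overlap, and the change was small beside that of *Cidec*. The group means were 139 ± 3.65 and 170.2 ± 5.63 CPM (SD, n = 3 each), and the log2 fold change was 0.29 (SE 0.0620, 95% interval 0.15 to 0.44, adjusted p = 0.0405, edgeR). The call was lost whichever 1 library was left out (adjusted p = 0.0541 without AdLmo3 replicate 1 to 0.134 without AdLmo3 replicate 2). With all 6 libraries, it was also lost when they were scaled by their totals alone (adjusted p = 0.0750) and with a replicate block (adjusted p = 0.0572). With the opposite-strand gene 2310001K24Rik, *Fitm2* shares 3.98% of its stretches of read length. Whether reads of these 2 genes were told apart there is not known, as the strand setting of the counting is not given.

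*Bscl2* encodes seipin, which sits in a ring at the neck between the endoplasmic reticulum and the new droplet and whose loss causes a generalized lipodystrophy (chr19:8837467-8848683, plus strand). Its level was 56.9, 56.9 and 50.2 CPM in AdLacZ and 73.4, 61.3 and 77.6 CPM in AdLmo3 libraries. Again all AdLmo3 libraries were above all AdLacZ libraries, with AdLmo3 replicate 2 nearest to the control range. The log2 fold change of 0.37 (95% interval 0.15 to 0.60) had an adjusted p of 0.0764 with edgeR, 0.0136 with DESeq2 and 0.0486 with edgeR without a filter on low counts.

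The estimated change of *Bscl2* was larger than that of *Fitm2*, but its spread between replicates was wider (coefficient of variation 12.0% against 3.31% in AdLmo3). The log2 ratio of *Bscl2* to *Fitm2* counts differed by 0.07 between the groups (exact permutation p = 0.5, 0.5 adjusted). *Bscl2* overlaps *Gng3* on the opposite strand and AC129217.1 on its own strand, and other genes hold 8.31% of its 75-base stretches. The strand setting of the counting is not given in the sources used here, so whether reads of *Bscl2* and *Gng3* were told apart there is not known.

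**Figure D3:**
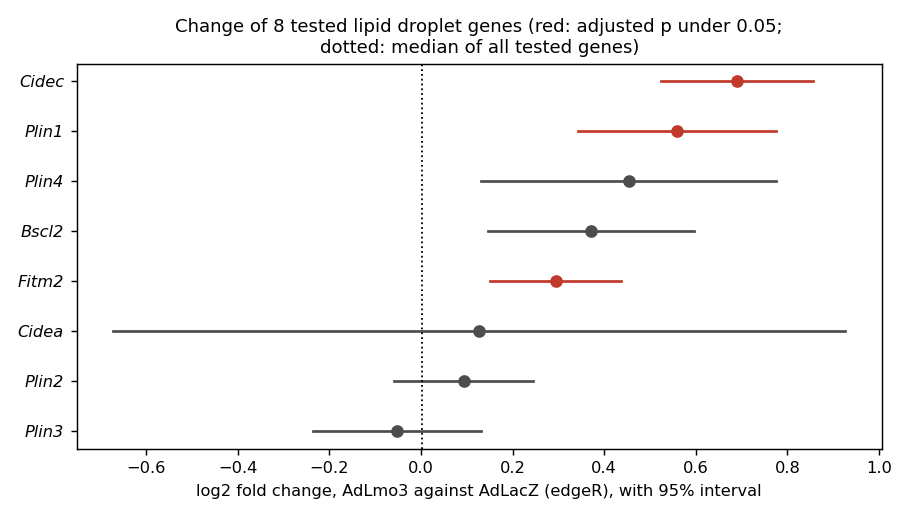
log2 fold change of AdLmo3 against AdLacZ (horizontal axis) with its 95% interval for the 8 tested lipid droplet genes, in red where the adjusted p is under 0.05 (edgeR). *Cidec*, *Plin1* and *Fitm2* are red, and the intervals of *Plin4* and *Bscl2* also lie above 0, although their adjusted p-values are 0.117 and 0.0764. The intervals are per gene and are not adjusted for the number of genes tested. Among all 12766 tested genes, 2635 had an unadjusted p under 0.05 (edgeR).

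Taking the 9 genes as a whole, they drew 0.447, 0.491 and 0.477% of all gene counts in AdLacZ and 0.595, 0.636 and 0.655% in AdLmo3 libraries. The mean share was 0.472 ± 0.0224% in AdLacZ and 0.629 ± 0.0303% in AdLmo3 libraries (SD, n = 3 each). *Plin1*, *Plin2*, *Plin4* and *Cidec* held 92.6 to 94.7% of the members' counts in every library. The total therefore follows these 4 genes.

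**Figure D4:**
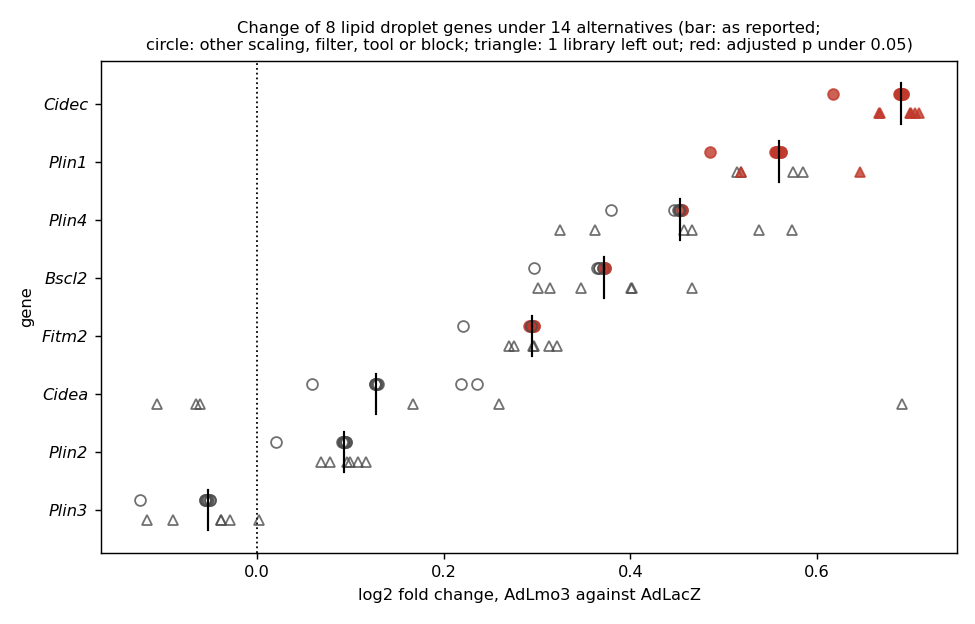
log2 fold change (horizontal axis) of the 8 tested genes under 14 alternatives, with circles for another scaling, filter, tool or replicate block, triangles for 1 library left out, a bar for the reported value and red for an adjusted p under 0.05. *Cidec* is red throughout, *Plin1* keeps values of 0.49 to 0.65, and *Cidea* spreads from -0.11 to 0.69.

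The DNA before the start sites was read for the members whose window is listed in RefSeq (GRCm38.p6, 250 bases before to 50 after the start). There were 12 windows from 8 members, with *Cidea* not among them. Each was searched on both strands for 6 sets of letters. The half-site AGGTCA, bound by nuclear receptors, was in 4 of the 12 member windows (of *Plin2*, *Plin5* and *Bscl2*). It was in 16.3% of the 32851 windows of all genes. A direct repeat of this half-site with 1 free base between its copies, the form that PPARγ binds together with RXR, was in no member window and in 0.0396% of all windows. Any match to the repeat is also a match to the half-site. The E-box CACGTG was in the window of *Plin2* (7.15% of all windows).

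TATAA was found in 3 of the 12 member windows, of *Plin4*, *Plin5* and *Bscl2* (24.9% of all windows). The GC box GGGCGG was in 6 of the 12, of *Plin2*, *Plin3*, *Plin5*, *Bscl2* and *Fitm2* (35.7% of all windows). CCAAT was in 5 of the 12, of *Plin2*, *Plin3*, *Plin4*, *Plin5* and *Bscl2* (37.4% of all windows). No window of *Cidec* or *Plin1*, the members with the largest changes, held any of the 6 sets of letters. A window of *Fitm2*, which was also called higher, held a GC box. The share of all windows that lack all 6 sets was not counted. A missing match says only that these letters are not in this window. Upstream stretches of *Cidec* and *Plin1* are shown for that reason beside that of *Plin3*, whose level did not pass the test, and capitals mark GGGCGG or CCAAT on either strand. They lie at chr6:113435761-113436010, chr7:79732905-79733026 and chr17:56290512-56290761 (GRCm38.p6) and are written 5′ to 3′ on the minus strand, on which the genes are read.
*Cidec*: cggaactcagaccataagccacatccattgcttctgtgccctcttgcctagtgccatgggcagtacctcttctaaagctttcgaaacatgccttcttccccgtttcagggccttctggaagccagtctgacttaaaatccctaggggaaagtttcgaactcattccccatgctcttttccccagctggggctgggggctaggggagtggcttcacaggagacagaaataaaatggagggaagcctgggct
*Plin1*: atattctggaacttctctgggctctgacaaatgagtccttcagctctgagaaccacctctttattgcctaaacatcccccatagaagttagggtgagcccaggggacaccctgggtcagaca
*Plin3*: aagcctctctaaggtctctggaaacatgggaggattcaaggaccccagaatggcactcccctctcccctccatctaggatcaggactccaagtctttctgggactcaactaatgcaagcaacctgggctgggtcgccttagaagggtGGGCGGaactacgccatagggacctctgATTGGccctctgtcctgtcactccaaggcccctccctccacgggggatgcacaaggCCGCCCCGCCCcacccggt
The *Plin3* stretch lies inside the annotated gene, before the RefSeq start site and outside its exons. It holds a GC box 103 bases before the start site, a pair of overlapping GC boxes on the other strand nearer to it, and a CCAAT box on the other strand 75 bases before it. The data bear on the level of the transcripts only, and no binding at these letters was measured.

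The wider machinery was read from 4 gene lists in the same fit. Of 24 further droplet-associated genes, 22 were tested, 2 were called higher and 1 lower, with a median log2 fold change of 0.05. Among all tested genes, 2.71% were called higher and 1.57% lower. *Mettl7b*, a methyltransferase-like protein of droplets, rose from 6.08 ± 0.906 to 14.6 ± 1.03 CPM (log2 fold change 1.26, adjusted p = 0.00352, edgeR). *Tmem159*, which encodes the seipin partner promethin, rose by 0.38 on the log2 scale (adjusted p = 0.0437), and *Spg20* (spartin), a droplet-binding adaptor, changed by -0.45 (adjusted p = 0.0272). The small GTPase *Rab18*, which had the highest mean CPM of the list with no correction for length, had a log2 fold change of -0.14 (adjusted p = 0.353). The median of this list was close to that of all tested genes, against 0.33 for the 8 tested coat and biogenesis genes. For the 12 listed adipocyte markers the median was 0.60, above that of the coat and biogenesis genes.

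The listed lipases, their partners and their regulators had positive log2 fold changes in 9 of 9 genes with a median of 0.37, and 3 were called, all higher. The list is not of lipases alone. It holds for example *G0s2* (log2 fold change 0.37, adjusted p = 0.114, edgeR) and *Hilpda* (0.26, adjusted p = 0.604), which were not called. Breakdown of stored fat was not measured in these libraries. Among all 12766 tested genes, 6437 had a positive log2 fold change and 2.71% were called higher. *Pnpla3* (adiponutrin) rose by 1.14 on the log2 scale (adjusted p = 0.00396, edgeR). *Lipe* (hormone-sensitive lipase) rose by 0.59 (adjusted p = 0.0179) and *Pnpla2* (adipose triglyceride lipase) by 0.57 (adjusted p = 0.00869). *Lipe* had 1126, 1197 and 1220.0 CPM in AdLacZ and 1545, 1875 and 1925 CPM in AdLmo3 libraries, with the same lowest library in each group as *Plin1*.

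In triglyceride synthesis, 14 of 16 listed genes were tested, and the 3 called were all higher, beside 2.71% called higher among all tested genes. These were *Agpat2*, which makes phosphatidic acid (log2 fold change 0.83, adjusted p = 0.00352), *Dgat1*, which adds the last fatty acid (0.70, adjusted p = 0.00496), and the phosphatidate phosphatase *Lpin1* (0.61, adjusted p = 0.0240, edgeR). The median over the list was 0.14.

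Of 13 regulators of these genes, 3 were called higher and none lower by edgeR (2.71% and 1.57% among all tested genes), and the median was 0.22. *Cebpa* and *Pparg*, the central transcription factors of adipocytes, rose by 0.59 (adjusted p = 0.0111) and 0.48 (adjusted p = 0.0316), and the oxysterol receptor *Nr1h3* (LXRα) rose by 0.39 (adjusted p = 0.0405). *Cebpa* and *Pparg* are also in the list of adipocyte markers. The counts of the droplet-associated, lipase and regulator lists depended on single libraries. The droplet-associated count was 1 without AdLacZ replicate 1, 2 or 3 or AdLmo3 replicate 2 or 3. The lipase count was 1 without AdLacZ replicate 3, and the regulator count was 0 without it (4 at an unadjusted p under 0.05) and 1 without AdLacZ replicate 1 or 2 or AdLmo3 replicate 2 or 3.

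The genes whose pattern over the 6 libraries was most like that of a member were sought among 9141 tested genes with a mean of at least 10 CPM, by Pearson's r of log2 CPM. These values describe 6 libraries in 2 groups and share their depth and scaling. Each is among the 2 highest of 9141 for its member, and even *Cidea*, which was not called, reached 0.990. *Plin1* was most like *Lipe* (r = 0.998) and *Ltbp2* (0.995). *Cidec* was most like *Ywhag* (0.998) and *Ncoa4* (0.996). For *Fitm2* the nearest were *Sgcd* (0.997) and *Gnb5* (0.993), and for *Bscl2* they were *Plxnd1* (0.987) and *Fam219a* (0.983).

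*Plin4* followed *Pdpr* (0.998) and *Mapk1ip1* (0.996) in pattern, and *Plin2* followed *Sidt2* (0.994) and *Mtss1l* (0.993). *Plin3* was nearest to *Serpine2* (0.996) and *Amot* (0.995), and *Cidea* to *Map4* (0.990) and *Trip10* (0.989). No member was paired with the same gene as another member. A like pattern can go with a change of another size. *Pdpr*, for example, had a log2 fold change of 0.10, against 0.45 for *Plin4*.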

How the data were processed

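RNA of AdLacZ- and AdLmo3-infected 3T3-L1 cells was sequenced as 3 libraries per virus (75 bp single reads). The authors deposited raw counts of reads per gene symbol, 1 table per library, without normalization. The submitters' processing notes name bcl2fastq, STAR 2.5.0b, DESeq2 1.6.3 and the mouse build mm10 (GRCm38). The counting program, its strand setting and the annotation are not given in the sources used here. The last 2 rows of each table, reads on no gene (7.15 to 8.94%) or on several (0.476 to 0.543%), were left out.

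The test was edgeR's quasi-likelihood test (edgeR 4.0.16 under R 4.3.3, after filterByExpr and TMM scaling, with no block) with Benjamini-Hochberg adjustment over 12766 genes, with a threshold of 0.05. Intervals were computed per gene, without adjustment for the number of genes tested. Ratios were compared by exact two-sided permutation tests. Scripts were tested on simulated data. Positions, exon lengths and shared 75-base stretches came from GENCODE M21, promoters from RefSeq. Alternatives were RLE, upper-quartile and total scaling, no filter, a mean of at least 1 CPM, DESeq2 1.42.0, limma voom (limma 3.58.1), the replicate block, longest-transcript lengths and leaving out each library.

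All 9 members are named. From each list the text names up to 3 rises and 3 falls with an adjusted p under 0.05 and the gene with the highest mean CPM, and for each tested member the 2 genes most like it. Members, lists and rules were chosen with earlier results of these data known, and the promoter letters after the sequences were seen. Replicates are of 1 cell line, and whether they are separate infections is not given in the sources used here. Other experiments of the study were not analysed here.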

Additional observations from a re-analysis of the deposited data

How the results depend on the processing

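*Cidec* was called in all 14 alternatives and *Plin1* in all 8 that kept every library. With DESeq2, 1096 of all genes, 5 members (*Plin4* and *Bscl2* added) and 6 lipase genes were called, and the cause was not tested. With scaling by library totals, which moved the median of all genes by -0.07, 266 genes were called higher and 501 lower, against 346 and 201 as reported. Leaving out 1 library gave 77 (without AdLacZ replicate 3) to 501 called genes, 1 to 2 members (1 without AdLacZ replicate 1, 2 or 3 or AdLmo3 replicate 2), 1 to 2 droplet-associated, 1 to 3 lipase, 2 to 3 triglyceride synthesis and 0 to 2 regulator genes. Fewer libraries enter these fits. Over the same fits the log2 fold change ran from -0.12 to 0.002376 for *Plin3* and from -0.11 to 0.69 for *Cidea*. The sign of *Plin3* turned without AdLmo3 replicate 3 (0.002376), and that of *Cidea* without AdLacZ replicate 1 (-0.11), AdLacZ replicate 3 (-0.07) or AdLmo3 replicate 1 (-0.06). Differences of log2 ratios ranged from 0.41 to 0.55 (*Plin1* to *Plin2*), 0.51 to 0.77 (*Plin1* to *Plin3*), 0.04 to 0.67 (*Cidec* to *Cidea*) and -0.01 to 0.17 (*Bscl2* to *Fitm2*). With longest-transcript lengths, the shares in AdLacZ and AdLmo3 were 37.96 and 43.2% for *Plin1*, 34.5 and 28.6% for *Plin2*, 3.24 and 2.43% for *Plin3*, and 24.3 and 25.8% for *Plin4*. Leaving out 1 library moved the shares in AdLacZ and AdLmo3 to 33.1 to 33.96 and 36.99 to 38.0% (*Plin1*), 26.4 to 27.2 and 20.9 to 23.2% (*Plin2*), 4.28 to 4.69 and 3.02 to 3.63% (*Plin3*), and 34.2 to 36.2 and 35.1 to 38.1% (*Plin4*).

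The fit with a replicate block called 498 genes and 2 members (*Cidec* and *Plin1*, with *Fitm2* at an adjusted p of 0.0572). Deviations of same-numbered libraries correlated by 0.0345, 0.176 and 0.176 across genes, and replicates 2 and 3 of AdLmo3 correlated best with their own number, whereas replicate 1 correlated best with AdLacZ replicate 2 (0.149). The numbers were not taken to pair the libraries.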
